A study of Homo sapiens with 4 samples.

Results

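PEG10, SGCE, MEST, PHLDA2, CDKN1C, H19, GNAS and GRB10 are 8 human genes that are expressed mainly or only from 1 parental copy in at least some tissues. They were chosen by symbol from the gene lists of 2 single-cell RNA-seq matrices, and 7 of the 8 had a row in both (7 of 33540 rows in Ishikawa, 7 of 33538 in T-47D). The expression of H19 was not analysed here. Ishikawa is an endometrial adenocarcinoma line and T-47D a mammary ductal carcinoma line, and both express estrogen receptor α. Cells of each line were kept in hormone-depleted medium and then exposed to 10 nM 17β-estradiol (E2) for 2, 4 or 8 h, with vehicle-treated cells as the 0 h group. The 4 time points of a line were tagged with lipid-anchored barcodes (MULTI-seq), pooled and captured together.

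There was 1 culture per line and time point, so no difference below has a replicate check and no p-value is given. Levels are unique molecular identifiers (UMIs, each standing for 1 captured RNA molecule) of a gene scaled to 1000000 UMIs over all kept cells of a line and time (CPM). The 95% intervals are exact Poisson for levels, conditional binomial for ratios and Clopper-Pearson for shares of cells. They cover counting error only. Those of levels and ratios leave out spread between cells beyond it.

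Genomic imprinting marks 1 parental copy of a gene with DNA methylation in the germ line, and the mark is read in the offspring so that only the maternal or the paternal copy is transcribed. PEG10 (a gag-pol derived gene domesticated from a retrotransposon, needed for the placenta), SGCE (ε-sarcoglycan, a membrane protein of the dystrophin complex) and MEST (a hydrolase-like membrane protein) are transcribed from the paternal copy. PHLDA2 (a pleckstrin-homology protein that restrains placental growth), CDKN1C (the cyclin-dependent kinase inhibitor p57) and H19 (a long noncoding RNA) are transcribed from the maternal copy. GNAS (the stimulatory G protein α subunit, which couples receptors to adenylate cyclase) and GRB10 (an adaptor that binds insulin and IGF1 receptors and damps their signal) are imprinted by tissue and by promoter. The counts sum both copies, so nothing below says which copy was read.

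The genes lie in 5 places of the GRCh38.p14 assembly. PEG10 (chr7:94656325-94669695, plus strand) and SGCE (chr7:94584980-94656133, minus strand) start 192 bp apart and are read in opposite directions. MEST lies at chr7:130486175-130506465 and GRB10 at chr7:50590068-50793453. CDKN1C (chr11:2883218-2885775) and PHLDA2 (chr11:2928273-2929420) are 42.5 kb apart at 11p15, where H19 (chr11:1995176-2001266) also lies. GNAS spans chr20:58839748-58911192. Libraries of this kind read the 3′ ends of transcripts, so a gene with several promoters, such as GNAS or GRB10, gives 1 summed count.

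RefSeq promoter windows were at hand for MEST, GNAS, GRB10 and H19. Over all 17 windows of these genes, each 300 bases long, a half-site of the estrogen response element (GGTCA or TGACC, either strand) was found in 6, against 37.4% of 35116 windows of the same length. The full element (GGTCA, any 3 bases, then TGACC) was in none of the 17 and in 0.0570% of all windows. The 3 stretches below are printed because 2 starts of GRB10 differ in CpG content, with a MEST start beside them. Each is the 250 bases before a start, 5′ to 3′ on the gene's strand, and capitals mark the dinucleotide CpG. Methylation was not measured, and whether these stretches carry an imprinting mark was not tested. The first is the outermost GRB10 start (chr7:50793454-50793703, minus strand, 37 CpG), the second a GRB10 start inside the gene (chr7:50732354-50732603, minus strand, 2 CpG and 2 half-sites) and the third a MEST start (chr7:130486097-130486346, plus strand, 20 CpG).
GRB10 outer: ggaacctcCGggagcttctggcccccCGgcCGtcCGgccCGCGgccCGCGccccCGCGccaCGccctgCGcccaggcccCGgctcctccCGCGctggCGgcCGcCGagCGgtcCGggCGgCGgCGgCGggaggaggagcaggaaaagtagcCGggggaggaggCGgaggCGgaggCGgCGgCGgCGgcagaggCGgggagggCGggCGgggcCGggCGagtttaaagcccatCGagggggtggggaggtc
GRB10 inner: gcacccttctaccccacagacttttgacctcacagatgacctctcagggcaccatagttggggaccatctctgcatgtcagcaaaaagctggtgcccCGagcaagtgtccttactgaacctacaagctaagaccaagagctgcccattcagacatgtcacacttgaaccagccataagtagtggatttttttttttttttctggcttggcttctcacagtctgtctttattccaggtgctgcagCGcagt
MEST: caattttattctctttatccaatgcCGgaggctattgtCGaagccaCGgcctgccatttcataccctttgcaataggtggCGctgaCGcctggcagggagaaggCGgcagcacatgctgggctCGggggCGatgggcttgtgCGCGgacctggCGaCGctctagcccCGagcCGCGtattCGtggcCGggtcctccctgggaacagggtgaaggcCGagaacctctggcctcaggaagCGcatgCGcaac
The outer GRB10 stretch had a CpG content of 0.914 of that expected from its C and G content, the inner one 0.138 and MEST 0.835, against a median of 0.558 over all windows cut in the same way.

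The cells and depth were as follows. In Ishikawa, 4613 of 9077 barcodes called to 1 time point were kept (776, 1480, 892 and 1465 at 0, 2, 4 and 8 h), and in T-47D all 4626 called barcodes were kept (1525, 1207, 1341 and 553). The pools held 12927799 to 33175309 UMIs. The Ishikawa 0 h group stood apart before filtering, with 38.2% of its called barcodes kept against 52.4 to 55.8% at the later times, and a median mitochondrial share of 7.29% in its called barcodes against 4.63 to 4.95%. The 2 matrices shared 80 barcodes, of which 5 were kept in both lines. The endometrial markers PAX8, SOX17 and EMX2 had 54.1 to 113 CPM in Ishikawa and 0 UMIs in T-47D, and the mammary markers GATA3, PIP and TFF3 had 484 to 758 CPM in T-47D and at most 1 UMI in Ishikawa. CD24, which had been listed as an Ishikawa marker, went the other way (12.8 CPM against 938).

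PEG10 was higher after E2 than before it in Ishikawa, with the largest upward change among the 6 members that had a mean of at least 10 CPM there. Its levels were 572, 617, 671 and 831 CPM at 0, 2, 4 and 8 h. Each time point lay above the one before, and none of the 4 counting intervals overlapped (560 to 584, 608 to 626, 659 to 682 and 821 to 841 CPM). Relative to 0 h the ratios were 1.08 (1.05 to 1.11), 1.17 (1.14 to 1.21) and, last, 1.45 (1.42 to 1.49). On the log2(CPM + 1) scale the 8 h change was 0.54, higher than in 99.01% of the 7885 genes with a mean of at least 10 CPM, whose median change was 0.00. Against 2 h, which leaves the 0 h group out, the 8 h level was 1.35 times as high (1.32 to 1.37).

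In T-47D, PEG10 was lower at every time and its course was not the same. The levels were 239, 222, 239 and 292 CPM in order of time, so that 8 h was the highest and 2 h the lowest. The ratio to 0 h was 0.929 (0.898 to 0.961), 0.999 (0.968 to 1.03) and 1.22 (1.17 to 1.27), and the 8 h change of 0.29 lay above that of 91.2% of 7440 genes. The 8 h value went with the mitochondrial share of the cells. In cells with at least 10% mitochondrial UMIs, PEG10 went from 211 CPM at 0 h to 321 CPM at 8 h, a ratio of 1.52 (1.44 to 1.60). In cells under 10%, it went from 273 to 260 CPM, a ratio of 0.952 (0.898 to 1.01). Whether cell quality had a part in the T-47D values was not tested.

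Ishikawa cells held more PEG10 than T-47D cells at every time, by a factor of 2.39 (2.32 to 2.46) at 0 h and 2.85 (2.75 to 2.95) at 8 h. Cells of the 2 lines were captured separately, so line and capture cannot be told apart.

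SGCE, which starts 192 bp from PEG10, did not follow its rise in Ishikawa. Its Ishikawa levels were 16.3, 17.5, 17.1 and 16.4 CPM at 0, 2, 4 and 8 h, and all 4 counting intervals overlapped. The 8 h ratio was 1.01 (0.862 to 1.17), an interval that lies below the 1.42 to 1.49 of PEG10. In T-47D the levels were 15.9, 13.2, 13.6 and 14.5 CPM, with 0 h the highest. The ratio was 0.827 (0.720 to 0.948) at 2 h and 0.914 (0.769 to 1.08) at 8 h. PEG10 was also below 0 h at 2 h there, at 0.929 (0.898 to 0.961), and the 2 h intervals of both genes overlapped. At 8 h they did not, with PEG10 at 1.22 (1.17 to 1.27). Unlike PEG10, SGCE stood at nearly the same level in both lines, 1.18 times as high in Ishikawa (1.09 to 1.26) over all times. These are low counts, 188 to 528 UMIs a pool, and a change of SGCE within these intervals was not detectable at this depth.

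**Figure D1:**
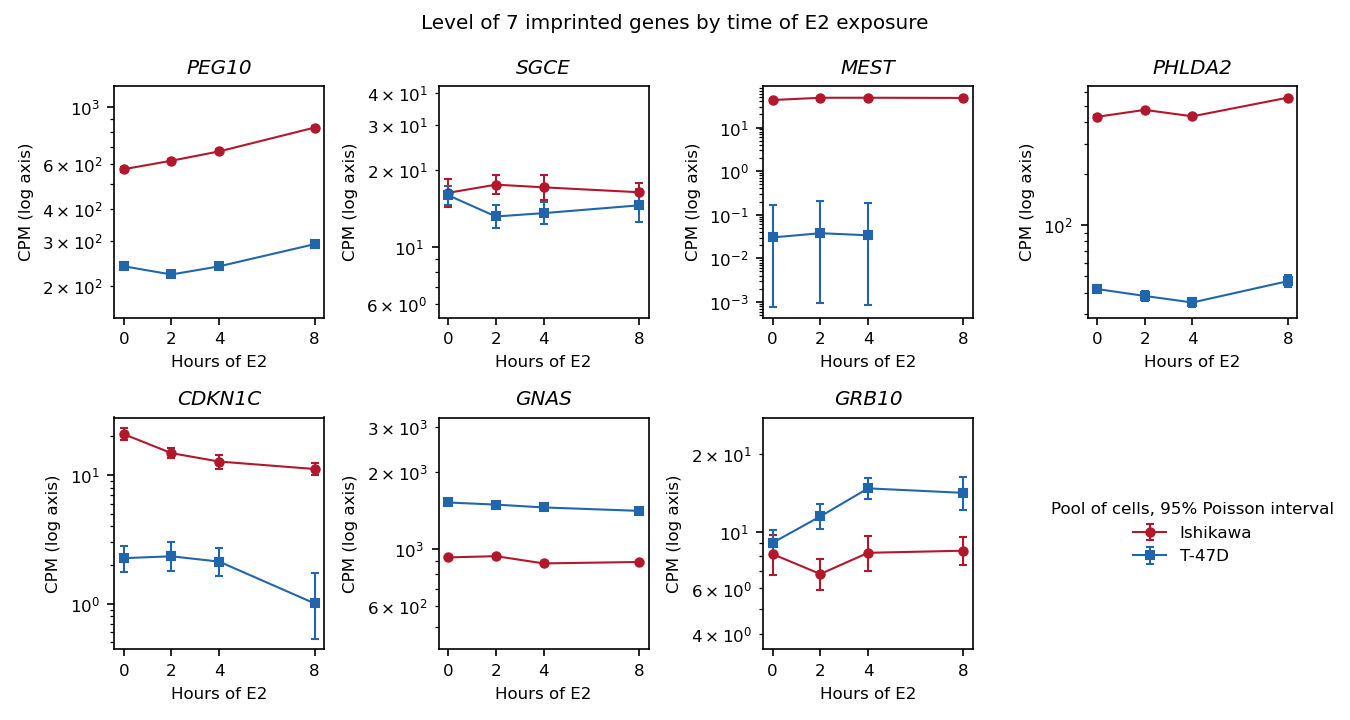
Level of each measured gene in CPM on a log axis against hours of E2, Ishikawa in red circles and T-47D in blue squares, 1 pool of cells per point, bars showing the 95% Poisson interval. PEG10 climbs from 572 to 831 CPM in Ishikawa, CDKN1C falls there from 20.8 to 11.2 CPM, and GRB10 goes from 9.04 to 14.2 CPM in T-47D; a pool with 0 UMIs (MEST, T-47D, 8 h) is not drawn.

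The other genes around PEG10 at 7q21 give the setting. Of the 14 neighbours listed, 6 had at least 10 CPM in Ishikawa and none of them changed by 1.5-fold at any time, with a median 8 h change of 0.00. Over all genes 2.45% did so in either direction, so a count of 0 among 6 says little. CASD1, a sialic acid acetyltransferase gene 22.2 kb from PEG10, had 15.4 CPM at 0 h and 17.5 CPM at 8 h there (ratio 1.13, 0.970 to 1.32). PPP1R9A, an actin-binding scaffold gene reported as imprinted, had 29.5 and 33.9 CPM (ratio 1.15, 1.03 to 1.28). In T-47D, 1 of 4 measured neighbours was past 1.5-fold upwards, where 2.67% of all genes were past it at any time. This was GNG11, a G protein γ subunit gene 728 kb away, at 170, 203, 231 and 317 CPM over the 4 times, a ratio of 1.87 (1.79 to 1.94) at 8 h. PON3, a paraoxonase gene, was the lowest of the 4 at 8 h (-0.22 on the log2 scale). In Ishikawa GNG11 was at 48.1, 46.5, 58.1 and 43.3 CPM, with no order along time.

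MEST separated the 2 lines almost completely. Ishikawa had 653, 1436, 932 and 1477 MEST UMIs at 0, 2, 4 and 8 h, and T-47D had 1, 1, 1 and 0. A UMI of MEST was found in 2710 of 4613 Ishikawa cells (58.7%) and in 3 of 4626 T-47D cells (0.0649%). At 8 h, 0 of 553 T-47D cells had one, which allows a share of up to 0.542% (3 counts of the total). Over all times the Ishikawa level was 1605 times that of T-47D, with a counting interval from 549 to 7787 because the T-47D side rests on 3 UMIs. Within Ishikawa, MEST was at 42.7 CPM at 0 h and between 47.7 and 48.1 CPM at the 3 later times. The ratio to 0 h was 1.13 (1.03 to 1.24) at 2 h and 1.12 (1.02 to 1.23) at 8 h, and the ratios of 4 and 8 h to 2 h had intervals that included 1. The 8 h change was 0.16 on the log2 scale in all kept cells and 0.0019 in cells of 15000 to 25000 UMIs. In thinned cells the 8 h ratio was 1.22 (1.03 to 1.45) in cells with TOP2A or MKI67 and 1.02 (0.826 to 1.254) in the others.

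CDKN1C, the cell cycle inhibitor at 11p15, fell in Ishikawa. Its levels were 20.8, 14.8, 12.8 and 11.2 CPM in order of time, and the 0 h interval (18.6 to 23.3 CPM) lay above that of every later time. The ratio to 0 h was 0.712 (0.615 to 0.824), 0.612 (0.516 to 0.725) and 0.536 (0.459 to 0.626). It was the 1 of 6 members of at least 10 CPM in Ishikawa to change by at least 1.5-fold, a threshold that 2.45% of 7885 genes passed at any time in either direction, 1.15% upwards and 1.29% downwards. By time, 0.786%, 0.634% and 0.812% of genes were past it upwards at 2, 4 and 8 h, and 0.659%, 0.621% and 0.469% downwards, the last 2 being the times at which CDKN1C was past it. With 5 in place of 1 added to each CPM value, the 4 h change was -0.54 and short of the threshold. In cells with at least 5% mitochondrial UMIs the ratios to 0 h were 0.979 (0.735 to 1.31) at 2 h, 0.901 (0.637 to 1.27) at 4 h and 0.530 (0.368 to 0.762) at 8 h. Its 8 h change of -0.84 was among the lowest of all genes, with 0.0634% of genes lower. From 2 h to 8 h the ratio was 0.753 (0.652 to 0.868), so the fall did not rest on the 0 h group alone.

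One cell weighs on this value. A single Ishikawa cell at 8 h held 52 CDKN1C UMIs, 15.03% of those in its pool, while the next cell held 10. Without the cell with the most CDKN1C UMIs in each pool, the levels were 20.1, 14.5, 12.3 and 9.49 CPM and the 8 h change was -1.01. The share of Ishikawa cells with a CDKN1C UMI, to which each cell adds at most 1, was 22.6% (19.7 to 25.7) before E2, then 19.7% (17.7 to 21.8), 18.4% (15.9 to 21.1) and finally 13.7%, with an upper bound of 15.6%. With every cell thinned at random to 12539 UMIs, so that depth is equal, the shares were 17.8%, 14.5%, 12.1% and 8.61%.

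In T-47D, CDKN1C was near the limit of what the depth shows, with 75, 62, 63 and 13 UMIs and thus 2.26, 2.34, 2.12 and 1.01 CPM. The 8 h ratio to 0 h was 0.445 (0.226 to 0.808). The gene was under the minimum of 10 CPM there and enters no count. Cells with a UMI of TOP2A or MKI67, called dividing here, held less CDKN1C than other cells at 0 h in both lines. The ratio in thinned cells was 0.726 (0.542 to 0.975) in Ishikawa and 0.336 (0.0863 to 0.951) in T-47D. In Ishikawa at 8 h it was at 0.404 (0.298 to 0.546) of 0 h in dividing and at 0.375 (0.269 to 0.521) in other thinned cells.

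PHLDA2, the other 11p15 member, moved the opposite way in Ishikawa. It was at 430, 472, 433 and 557 CPM in order of time. The values at 0 and 4 h overlapped, 2 h lay above them and 8 h above all. The 8 h ratio was 1.295 (1.26 to 1.33), a change of 0.37 that was higher than in 97.2% of genes and did not reach 1.5-fold. T-47D held 42.1, 38.4, 35.1 and 46.9 CPM, a dip to 0.834 (0.769 to 0.904) of 0 h at 4 h and a ratio of 1.11 (1.01 to 1.22) at 8 h. Restricted to cells of 15000 to 25000 UMIs, the T-47D 8 h change was -0.04 on the log2 scale against 0.15 in all cells. PHLDA2 was 12.2 times as high in Ishikawa as in T-47D over all times (11.8 to 12.6). In Ishikawa the level was lower in dividing than in other thinned cells at every time (ratios 0.820 to 0.937), and in T-47D it was higher in dividing cells at 0, 2 and 4 h (ratios 1.32 to 1.44).

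Of the 15 genes listed around the 11p15 members, 7 had at least 10 CPM in Ishikawa and 5 in T-47D, and none passed 1.5-fold. Over all genes 2.45% passed in Ishikawa and 3.64% in T-47D at any time in either direction, so a count of 0 says little here. The lowest 8 h change in Ishikawa belonged to KCNQ1OT1, the long noncoding RNA whose transcription silences CDKN1C and its neighbours on the paternal copy, 183 kb from CDKN1C. It was at 81.3, 69.3, 61.6 and 57.7 CPM, a ratio of 0.709 (0.659 to 0.763) at 8 h. The highest was NAP1L4, a histone chaperone gene 15.02 kb from PHLDA2, at 168, 200, 199 and 216 CPM (ratio 1.29, 1.23 to 1.35). CDKN1C and KCNQ1OT1 were thus lower, and PHLDA2 and NAP1L4 higher, at 8 h than at 0 h in the same pools. In T-47D the 5 ran from ASCL2 (-0.14) to TSSC4 (0.13) on the log2 scale, and NAP1L4 had 150 CPM at 0 h and 147 CPM at 8 h.

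GNAS changed little. Ishikawa held 930, 941, 882 and 893 CPM, and T-47D 1524, 1494, 1457 and 1413 CPM. The T-47D levels fell in order of time, by little: the 8 h ratio was 0.927 (0.912 to 0.943), below 1 in all 14 alternative computations. Among these, the use of every called barcode repeats the reported value, as all were kept in T-47D. In Ishikawa the 8 h ratio was 0.960 (0.940 to 0.979), and the change turned from -0.06 to 0.04 on the log2 scale when every called barcode was used, so no direction is given. A GNAS UMI was found in every kept cell of both lines, and T-47D held 1.58 to 1.65 times the Ishikawa level at each time.

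GRB10 rose in T-47D, with levels of 9.04, 11.5, 14.7 and 14.2 CPM in order of time. The levels at 4 and 8 h overlapped each other and lay above 0 h. The ratio to 0 h was 1.27 (1.08 to 1.49), 1.63 (1.40 to 1.89) and 1.57 (1.295 to 1.89). It was the 1 of 5 members of at least 10 CPM in T-47D past 1.5-fold, against 3.64% of 7440 genes in either direction, 2.67% upwards and 0.981% downwards. By time, 1.22%, 1.33% and 2.34% of genes were past it upwards at 2, 4 and 8 h and 0.417%, 0.363% and 0.726% downwards, and GRB10 was past it at 4 and 8 h. Its 0 h level was under the 10 CPM minimum, which it passed through the later times, and with 5 in place of 1 added to each CPM value the changes at 4 and 8 h were 0.49 and 0.45, short of the 0.58 that 1.5-fold asks. The share of T-47D cells with a GRB10 UMI was 17.5% (15.6 to 19.5), 21.7% (19.4 to 24.1), 27.5% (25.1 to 30.0) and 25.3% (21.7 to 29.2), and no cell held more than 6 GRB10 UMIs. In thinned cells the 4 h ratio was 1.88 (1.298 to 2.75) in dividing and 1.66 (1.31 to 2.11) in other cells.

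In Ishikawa, GRB10 had 125, 204, 160 and 261 UMIs, or 8.17, 6.83, 8.26 and 8.42 CPM, all with overlapping intervals. The 2 h value was the lowest, and the ratio of 8 h to 2 h was 1.23 (1.02 to 1.49). The lines were alike at 0 h (T-47D over Ishikawa 1.11, 0.896 to 1.38) and apart at 8 h (1.68, 1.38 to 2.04). The reverse held for COBL, an actin nucleator gene 223 kb from GRB10 and reported as imprinted in its neighbourhood. It went from 9.80 CPM at 0 h to 16.2, 21.02 and 23.0 CPM in Ishikawa, a ratio of 2.35 (1.97 to 2.82) at 8 h, and from 21.2 to 22.7 CPM in T-47D (1.07, 0.9301 to 1.23). COBL was the 1 of 6 measured neighbours of MEST, GRB10 and GNAS in Ishikawa past 1.5-fold, and 0 of 7 passed in T-47D, against 2.45% and 3.64% of all genes. Like GRB10 in T-47D, COBL was under 10 CPM at 0 h and passed the minimum through the later times. FIGNL1, a DNA repair gene, was the lowest in Ishikawa (-0.16) and the highest in T-47D (0.42) at 8 h, and CTSZ was the lowest in T-47D (-0.05).

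**Figure D2:**
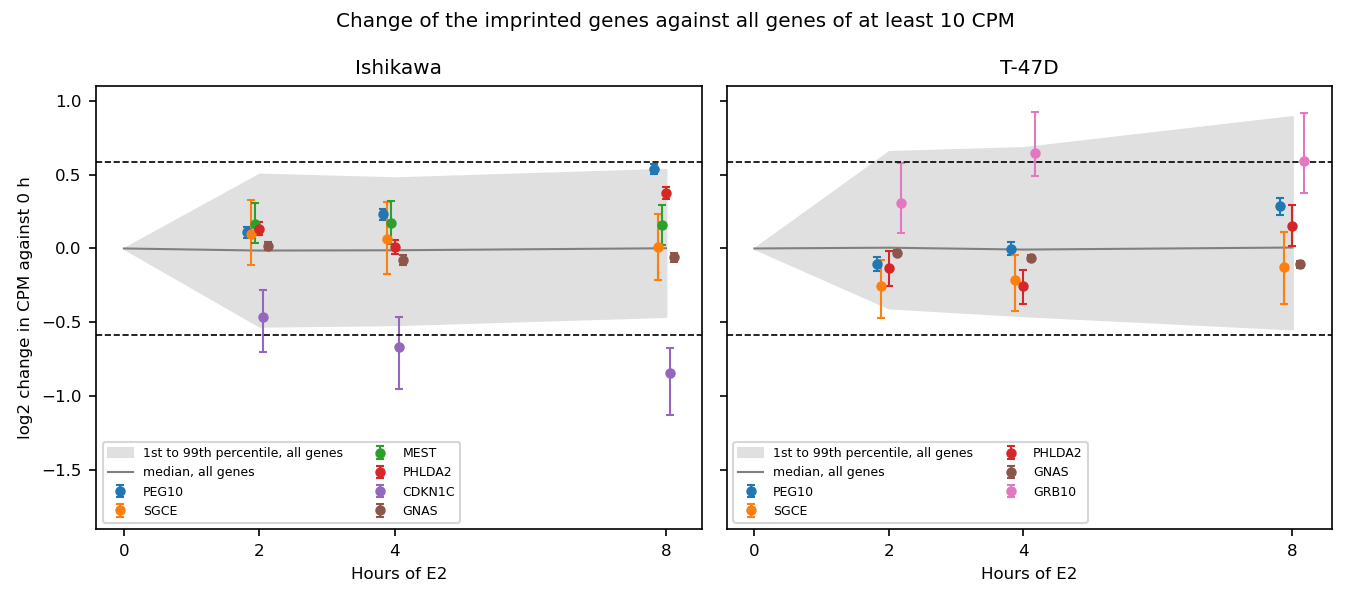
Change in CPM against 0 h of the same line, as log2((CPM + 1)/(CPM at 0 h + 1)), for members of at least 10 CPM, with counting intervals around each pool. The grey band spans the 1st to 99th percentile of all genes, the dashed lines mark 1.5-fold, and points are offset sideways within a time: CDKN1C leaves the band downwards in Ishikawa, PEG10 sits at its upper edge at 8 h (0.54), and GRB10 crosses the 1.5-fold line in T-47D.

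In UMIs, the rise of PEG10 in Ishikawa was largest at the upper percentiles. A rise in proportion over all cells would also give this. The top 5% of thinned cells held 24.3%, 21.3%, 23.2% and 25.2% of PEG10 UMIs in order of time. At 0 h the richest thinned cells held 129 and 173 UMIs and the next 54, and at 8 h the richest held 118 and 135. The share at 0 h without those cells was not computed. In thinned cells the median was 5, 5, 6 and 6 UMIs at 0, 2, 4 and 8 h and the 25th percentile was 3 at each time. The 75th percentile went from 9 to 10, 11 and 13, and the 90th from 15.5 to 17, 18 and 24 UMIs. Cells above the 90th percentile of 0 h made up 10.1%, 11.7%, 12.7% and 19.1% of cells in order of time. The share of cells with at least 1 PEG10 UMI was 94.5% (92.5 to 96.1) before E2 and 95.5% (94.3 to 96.6) after 8 h of it. Cells above the 0 h median of 5 UMIs made up 45.4% at 0 h and 55.7% at 8 h. The percentiles are whole or near-whole numbers of UMIs, so small shifts of the lower ones cannot be seen in them. Without the 1% of cells with the most PEG10 in each pool, the 8 h change was 0.54, as with them. In thinned cells the 8 h ratio was 1.38 (1.32 to 1.44) in cells with TOP2A or MKI67 and 1.52 (1.45 to 1.61) in the others.

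In T-47D the spread was wider still. The median was 2 UMIs at each time, the 90th percentile 8, 6, 7 and 9, and the top 5% of cells held 37.5%, 40.4%, 36.5% and 29.3% of all PEG10 UMIs. The lower part of the range moved too. Thinned cells above the 0 h median of 2 UMIs made up 36.1%, 32.6%, 35.3% and 49.7% in order of time. Those with at least 1 PEG10 UMI made up 75.9% (73.5 to 78.2) at 0 h and 83.0% (79.5 to 86.2) at 8 h. One T-47D cell at 0 h held 221 PEG10 UMIs. Without the top 1% of cells the levels were 197, 182, 203 and 266 CPM, and the 8 h change was 0.43 in place of 0.29. Dividing T-47D cells had 1.36 times (1.28 to 1.45) the PEG10 of other cells at 0 h. In thinned cells at 2 h, PEG10 was at 0.724 (0.666 to 0.788) of 0 h in dividing cells and at 1.03 (0.979 to 1.09) in the others. At 8 h the ratio to 0 h was 1.06 (0.971 to 1.15) in dividing cells, an interval that includes 1, and 1.29 (1.21 to 1.37) in the others. At full depth, dividing cells were 32.6% of kept T-47D cells at 0 h and 41.6% at 8 h. Among thinned cells they were 369 of 1331 and 180 of 519. Their part in the pooled values was not tested.

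**Figure D3:**
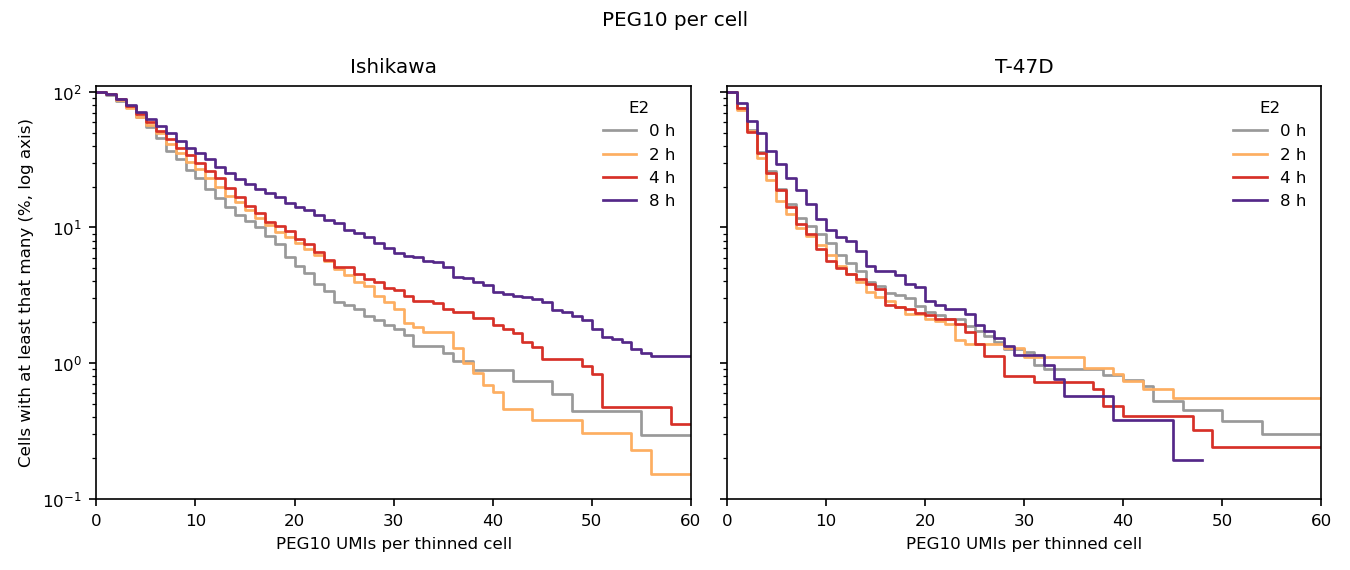
Share of cells (percent, log axis) holding at least the number of PEG10 UMIs on the horizontal axis, in cells thinned to 12539 (Ishikawa) or 14495 UMIs (T-47D), 1 line per time. In Ishikawa the curves start together and spread to the right, with 19.1% of cells above 15.5 UMIs at 8 h against 10.1% at 0 h. In T-47D the 8 h curve lies above that of 0 h at low numbers of UMIs, with 49.7% of cells above 2 UMIs against 36.1%, and the curves cross further right.

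For noise, the SD of UMIs per 10000 over cells was divided by its mean (CV) and set against a smooth curve of log2(CV + 1) on the log10 mean over all genes of at least 0.1 per 10000. PEG10 had a CV of 1.38 in Ishikawa at 0 h where the curve gave 0.522, and 2.00 in T-47D where it gave 0.610. Its residual ranked above 99.1 to 99.7% of 7393 to 7943 genes at every time in both lines. PHLDA2 ranked above 95.4 to 97.4% at every time in both lines. CDKN1C ranked above 98.7 to 99.96% in Ishikawa, the highest being at 8 h, with the cell of 52 UMIs in that pool. In thinned cells, among which that cell was too shallow to count, the CV at 8 h was 3.97 against 8.87 in all cells. GNAS, at the other end, ranked between 1.7 and 14.7%, with a CV of 0.362 in Ishikawa and 0.336 in T-47D at 0 h. MEST in Ishikawa ranked between 7.6 and 19.7%, and SGCE between 25.1 and 74.7% over both lines. These ranks depended on the cells used. With every called Ishikawa barcode, MEST at 0 h ranked at 67.9%, SGCE ranged from 6.3 to 73.5% and PHLDA2 from 82.4 to 92.5%, and in thinned T-47D cells SGCE ranged from 6.9 to 63.8%. PEG10 ranked above 97.8% in each of these settings.

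**Figure D4:**
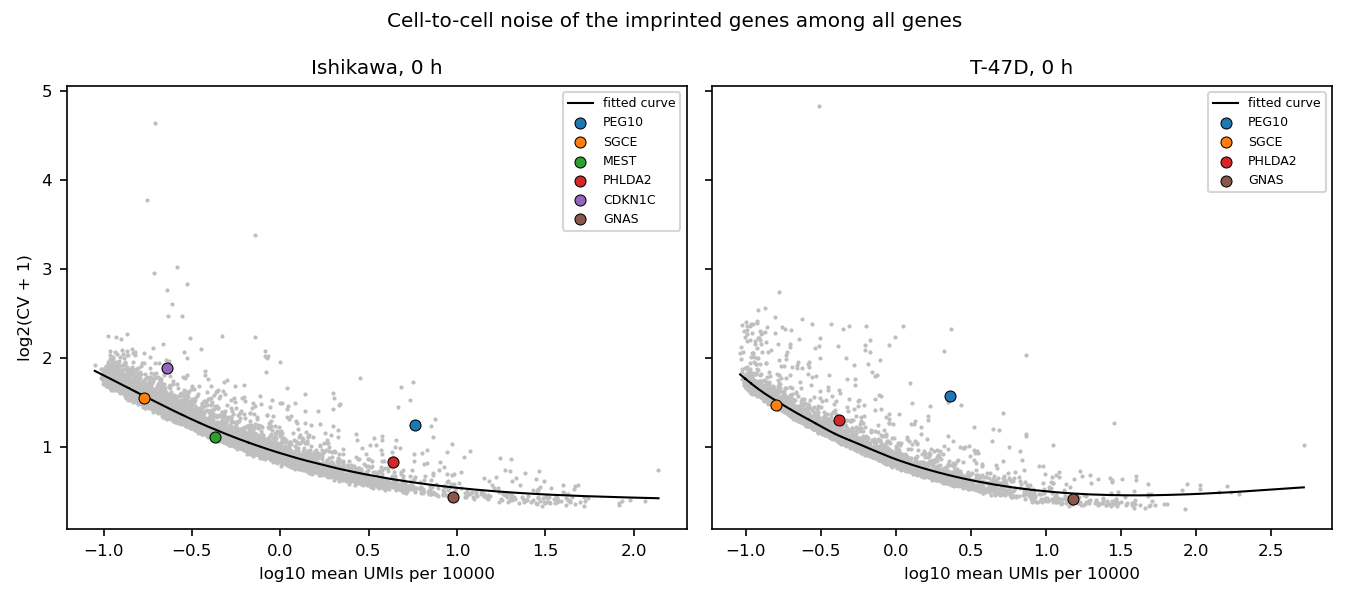
Noise as log2(CV + 1) against the log10 of mean UMIs per 10000, each grey point 1 gene at 0 h, the black line the fitted curve, coloured points the members of at least 0.1 UMIs per 10000. PEG10 lies far above the curve in both lines (CV 1.38 in Ishikawa and 2.00 in T-47D), GNAS just below it.

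Across single cells the correlation of PEG10 with SGCE was positive and weak in each line and time. Spearman's rho over thinned cells of 1 line and time was 0.01 to 0.05 in Ishikawa and 0.03 to 0.13 in T-47D, the highest being at 8 h in T-47D. Over all pairs of members with a mean of at least 10 CPM in a line, and all times, rho stayed between -0.12 and 0.14. These are correlations in sparse counts over cells of 1 culture. The genes of at least 50 CPM with the highest median rho to PEG10 were PCDH9 (0.18), PTMA (0.17), PTMS (0.17), G0S2 (0.17) and HAPLN3 (0.15) in Ishikawa, where the 99th percentile of 2736 genes was 0.11. In T-47D they were DSP (0.22), PIP (0.20), ALCAM (0.19), DBI (0.18) and GNMT (0.18), with a 99th percentile of 0.11 over 2680 genes. No gene was in both lists.

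In cells with more PEG10 UMIs than the 90th percentile of 0 h (15.5 in Ishikawa, 8 in T-47D), SGCE was compared with the other cells. In Ishikawa it was at 23.5 against 15.4 CPM at 0 h (ratio 1.53, 0.901 to 2.47) and at 18.5 against 17.0 CPM at 8 h (1.09, 0.803 to 1.45), and the ratios at 2 and 4 h were 0.837 (0.549 to 1.23) and 1.19 (0.766 to 1.78). In T-47D the ratios in order of time were 1.27 (0.866 to 1.81), 1.94 (1.23 to 2.94), 1.58 (0.989 to 2.42) and 1.89 (1.14 to 3.01). SGCE was thus higher in the T-47D cells with more PEG10 beyond counting error at 2 and 8 h, and all 4 Ishikawa intervals included 1.

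Genes whose pooled changes lay nearest to those of PEG10 were sought by Euclidean distance over the 3 changes of a line, among genes of at least 50 CPM. In Ishikawa they were SRM (spermidine synthase), AHCYL1, BZW2, IGF2BP2 (an mRNA-binding protein) and TOMM40 (the mitochondrial import pore), with 8 h changes of 0.48, 0.48, 0.46, 0.45 and 0.45 against 0.54 for PEG10. In T-47D they were IMPDH2 (guanine nucleotide synthesis), EIF2AK4, HMMR, SMC4 (a condensin subunit) and XPO1 (nuclear export), with 8 h changes of 0.21 to 0.34. Over the 6 changes of both lines they were MRPL12, APRT, EBNA1BP2, AHCYL1 and HSPD1, and the nearest, MRPL12, had 0.40 in Ishikawa and 0.28 in T-47D at 8 h.

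Of 52 other imprinted genes listed, 49 had a row, 14 had at least 10 CPM in Ishikawa and 6 in T-47D, and none changed by 1.5-fold at any time in either line. The share over all genes was 2.45% in Ishikawa and 3.64% in T-47D, so with so few genes a count of 0 says little about the list. The median 8 h change was 0.01 in Ishikawa and 0.10 in T-47D, against 0.00 and 0.01 over all genes. In Ishikawa the range ran from KCNQ1OT1 (-0.49) to PPP1R9A (0.19), and in T-47D from SNRPN (-0.16), which encodes a splicing protein, to RB1 (0.22), the retinoblastoma gene. The other genes of the gag-derived families that PEG10 belongs to gave the same count: 9 measured in Ishikawa and 6 in T-47D, none past 1.5-fold, with 8 h medians of -0.07 and -0.09. RTL8B, the lowest of both lines at 8 h, had changes of -0.35 and -0.18, and the highest were CCDC8 in Ishikawa (0.15) and PNMA1 in T-47D (0.46).

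Relatives and partners of the members were listed too, 29 in all, of which 15 in Ishikawa and 14 in T-47D had at least 10 CPM. None of the 15 passed in Ishikawa, where 2.45% of all genes passed at any time in either direction. PHLDA3 was lowest (-0.25) and CCND1 highest (0.37) there at 8 h. In T-47D 2 of the 14 passed upwards, where 2.67% of all genes did so at any time. IGF1R, the IGF1 receptor to which GRB10 binds, was at 19.7, 24.5, 28.1 and 33.2 CPM, a ratio of 1.68 (1.49 to 1.90) at 8 h. CCND1, the cyclin D1 gene, was at 102, 158, 126 and 143 CPM, with its highest ratio, 1.55 (1.48 to 1.62), at 2 h. For the kinase inhibitors related to CDKN1C, the values lay near 1: at 8 h in Ishikawa CDKN1A was at 1.04 (0.922 to 1.17) and CDKN1B at 0.937 (0.845 to 1.04) of 0 h. CDKN1B was the lowest of the list in T-47D at 8 h (-0.24).

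**Figure D5:**
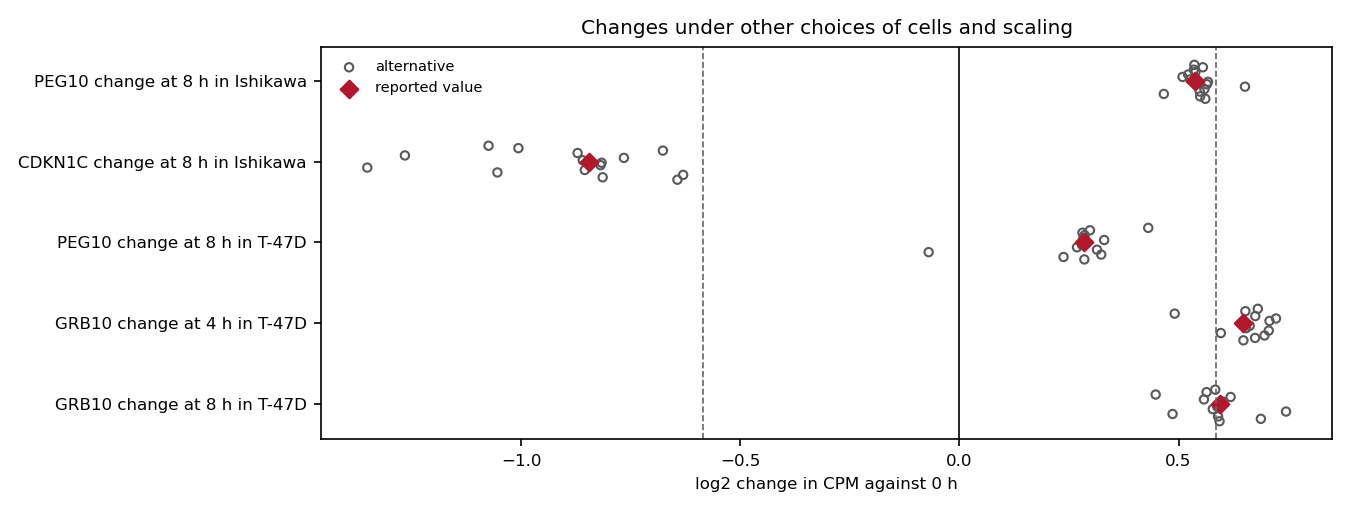
Changes against 0 h on the log2 scale for PEG10, CDKN1C and GRB10, the reported value as a red diamond and each other choice of cells, scaling or pseudocount as an open circle, offset vertically, with dashed lines at 1.5-fold. CDKN1C stays left of the line at 8 h in Ishikawa (-1.35 to -0.63), PEG10 in Ishikawa stays between 0.47 and 0.65, and PEG10 in T-47D has 1 circle below 0 (-0.07, cells under 10% mitochondrial UMIs).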

How the data were processed

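Expression was measured by droplet 3′ single-cell RNA-seq in 1 library of Ishikawa and 1 of T-47D cells, each with a matching library of MULTI-seq barcodes. Per the submitters' processing notes the reads were processed with Cell Ranger 3.1.0 on hg38, and the values are the deposited UMI counts per gene and cell, not normalized. The authors assigned barcodes to time points with the demultiplex R package. Their deposited calls were used as given, so doublets between time points were left out (1906 in Ishikawa and 1442 in T-47D) and doublets within a time point were not removed. A cell type that should lack the genes was not part of either capture, so the share of free RNA in a cell's counts is unknown.

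After the limits in the study's methods, Ishikawa cells needed 8500 to 35000 UMIs, 2700 to 6000 detected genes and a mitochondrial share under 7%. T-47D cells needed 7500 to 40000 UMIs, 1500 to 6000 detected genes and a share under 20%. Counts were summed by line and time and divided by the total (Python 3.11.15, NumPy 2.4.6, SciPy 1.17.1). Changes are log2((CPM + 1)/(CPM at 0 h + 1)), genes needed a mean of 10 CPM over the 4 times, and a gene is said to pass at a 1.5-fold change. GFP and tdTomato stayed in totals only. With 1 culture per group no test was run. The members and gene lists were chosen with earlier results of these data known. The genes named are the members, the 5 nearest or most correlated with PEG10, and of each list those past 1.5-fold with the highest and lowest at 8 h. A few neighbours and relatives (CASD1, PPP1R9A, CDKN1A, CDKN1B, and GNG11 and COBL in the other line) were named after their values were seen. Noise curves used mgcv 1.9.3, and scaling alternatives used edgeR 4.0.16 for normalization factors. Cells were thinned at random to 12539 UMIs (4152 cells) and 14495 UMIs (4163 cells), leaving shallower cells out. The fold rule and the ratio intervals were tested on Poisson draws of pooled counts, and the thinning on simulated cells. Those pooled draws had no spread between cells, so they could not show whether the intervals are wide enough for it. Positions and promoter windows are from RefSeq on GRCh38.p14. No promoter window was at hand for PEG10, SGCE, PHLDA2 and CDKN1C. Alternatives were other limits on cells, other scalings and other thresholds, and 2 that leave out the cells richest in a member were chosen after seeing the data. As all called T-47D barcodes were kept, the alternative with every called barcode repeats the reported values there and adds no check.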

Additional observations from a re-analysis of the deposited data

Results flagged for a closer look

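At 2 h, the pooled PEG10 change had opposite signs in the 2 lines, 0.11 on the log2 scale in Ishikawa and -0.11 in T-47D. Each counting interval was clear of 0. PHLDA2 did so at the same time, with 0.13 in Ishikawa and -0.13 in T-47D. These differences were not tested, as there was a single culture for each line and time. The intervals leave out spread between cells. In thinned cells at 2 h the variance of PEG10 was 8.08 times its mean in Ishikawa and 16.2 times in T-47D. Without cells that held a UMI of TOP2A or MKI67, the T-47D change of PEG10 was 0.10, and in cells under 10% mitochondrial UMIs it was -0.30.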

How the results depend on the processing

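No paired analysis was possible because each line had 1 culture per time point and no test was run. The 8 h change of PEG10 in Ishikawa was 0.47 in cells without TOP2A and MKI67 at full depth (0.61 in thinned cells without them) and 0.65 in cells of 15000 to 25000 UMIs, against 0.54 reported, and ran within the counting interval under the other 13 alternatives. In T-47D it was -0.070 in cells under 10% mitochondrial UMIs and 0.43 without the 1% of cells with the most PEG10, against 0.29. The count of 1 member past 1.5-fold in Ishikawa (CDKN1C) became 2 in cells of 15000 to 25000 UMIs (with PEG10), 3 at a lower fold threshold (with PHLDA2 too), 0 at a fold of 2 and 0 with a minimum of 50 CPM. In T-47D the 1 member (GRB10) became 0 with a pseudocount of 5, 0 at a fold of 2, 0 with a minimum of 50 CPM and 2 with no minimum (with CDKN1C). The cause was not tested, except that thresholds change the count by construction. The share of all genes that passed was not computed under these alternatives, so their counts have no background beside them. Of 451 recomputed changes of members, PEG10 at 8 h aside, 412 lay within the reported counting interval, and none that had passed 1.5-fold changed sign. Only CDKN1C in Ishikawa and GRB10 in T-47D had passed. Among smaller changes, the sign differed between computations for PEG10 in T-47D, and for GNAS and SGCE in Ishikawa, at 2, 4 and 8 h. It also differed for SGCE and PHLDA2 at 8 h in T-47D and for PHLDA2 at 4 h in Ishikawa. The CDKN1C fall at 8 h in Ishikawa ran from -1.35 to -0.63. No other scaling moved the median gene by more than 0.04. CDKN1C at 4 h was short of 1.5-fold with a pseudocount of 5 (-0.54). Depth limits MEST and CDKN1C in T-47D, and SGCE and GRB10 in both lines, and 1 culture per time leaves culture differences unmeasured.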

Other observations

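Barcodes outside the comparisons also held the members. In Ishikawa, 4002 barcodes with no time call had PEG10 at 764 CPM, CDKN1C at 17.0 and MEST at 46.0, and 1906 doublet calls had 656, 15.7 and 46.7 CPM. In T-47D, 12120 barcodes with no call and a median of 7023.5 UMIs had PEG10 at 251 CPM, GRB10 at 13.8 CPM and 5 MEST UMIs in all, and 1442 doublet calls had 212 and 12.5 CPM and 0 MEST UMIs. GNAS was at 1124 CPM in the T-47D barcodes with no call against 1483 in kept cells, and PHLDA2 at 32.0 against 39.7. In 4464 Ishikawa barcodes called but outside the limits GNAS was at 757 CPM against 912 in kept cells.

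In Ishikawa, GRB10 at 0 h was at 5.03 CPM in thinned cells with TOP2A or MKI67 and at 10.9 CPM in the others, a ratio of 0.463 (0.268 to 0.788). At 8 h the values were 8.46 and 8.50 CPM. PEG10 in Ishikawa was lower in cells with at least 1% of UMIs in the row named GFP than in the others at every time, with ratios of 0.834 to 0.943.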
